A study of Rattus norvegicus with 20 samples.

Results

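Expression of 8 genes of the urothelium, the epithelium that lines the renal pelvis, was followed through 20 whole rat kidneys. The genes were 5 uroplakins (Upk1a, Upk1b, Upk2, Upk3a and Upk3b), the small proline-rich protein gene Sprr1a, the surface antigen gene Psca and the basal keratin gene Krt5. They were taken by gene symbol from 32907 genes listed in either deposited table, and all 8 were found in both tables by gene identifier. The set was selected on its cyclosporine A and saline values, as pelvic lining genes of which several were higher with the drug, so that comparison is given as a description, with no test. The animals were wild-type adult male Wistar rats aged 10 to 12 weeks, dosed for 28 days from an osmotic minipump under the skin. Cyclosporine A and tacrolimus are both calcineurin inhibitors used as immunosuppressants. Cyclosporine A kidneys (n = 4) were compared with saline kidneys (n = 4), and tacrolimus kidneys (target trough 3.5 ng/ml, n = 6) with kidneys given the tacrolimus vehicle, 25% DMSO and 75% PEG (n = 6). A target trough is also listed for cyclosporine A, but its unit is uncertain and the value is not reported here. RNA came from the entire kidney, in which the pelvic lining is a small part.

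Uroplakins are membrane proteins that pack into rigid plaques on the apical surface of umbrella cells, the outermost urothelial layer, and help to form the barrier between urine and tissue. UPK1A pairs with UPK2, and UPK1B pairs with UPK3A or UPK3B, before the pairs leave the endoplasmic reticulum. SPRR1A is a cross-linked precursor of the cornified envelope of stratified epithelia, PSCA is a lipid-anchored protein of the Ly6 family found on urothelium, and KRT5 is the keratin of basal cells. UPK3B is also made by mesothelium, the lining of body cavities.

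Each drug was compared with its own vehicle inside its own table, because the 2 tables were normalized separately, so what belongs to the drug, the vehicle or the table cannot be told apart between them. A library of the cyclosporine A table held 30467652 to 34307942 fragments, and a library of the tacrolimus comparison 31670202 to 39358485. Mitochondrial transcripts took 49.7% to 68.6% of the fragments in saline libraries, 80.2% to 90.8% in cyclosporine A libraries and 10.5% to 15.9% in the tacrolimus table. The deposited FPKM (the number of fragments divided by gene length and library size) of the cyclosporine A table carries that gap, which moved the median of all tested genes by −0.89 on the log2 scale. Levels of that table are therefore given as rescaled FPKM, recomputed with median-of-ratios size factors, which put the median at −0.00023; deposited values are given where the reading differs. In whole-kidney RNA, fewer urothelial cells and less RNA per urothelial cell cannot be told apart.

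Start-site sequences were matched by symbol for 6 of the 8 genes in the RefSeq table of the rat assembly GRCr8 (Upk2 and Psca were not matched). They are shown for 3 genes: Sprr1a and Upk1b, which moved together between kidneys of the tacrolimus table, and Krt5, whose pairs with them missed the threshold at low counts (the difference between values of r was not tested). Each runs 5′ to 3′ on the gene's strand and ends before the transcription start. Capitals mark matches to the motifs searched.
Sprr1a, chr2:180752626-180752875, minus strand: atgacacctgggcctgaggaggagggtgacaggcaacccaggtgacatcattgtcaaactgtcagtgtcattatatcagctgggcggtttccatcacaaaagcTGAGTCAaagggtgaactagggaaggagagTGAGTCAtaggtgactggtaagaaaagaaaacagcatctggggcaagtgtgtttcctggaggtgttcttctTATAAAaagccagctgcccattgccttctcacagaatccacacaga
Upk1b, chr11:75459131-75459243, plus strand: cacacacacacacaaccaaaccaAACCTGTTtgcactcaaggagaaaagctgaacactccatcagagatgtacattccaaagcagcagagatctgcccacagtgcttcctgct
Krt5, chr7:134730570-134730819, minus strand: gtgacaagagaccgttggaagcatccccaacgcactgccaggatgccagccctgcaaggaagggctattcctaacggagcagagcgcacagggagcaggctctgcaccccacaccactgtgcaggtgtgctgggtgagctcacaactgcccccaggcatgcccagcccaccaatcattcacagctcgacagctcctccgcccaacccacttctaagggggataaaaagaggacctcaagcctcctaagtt

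The search covered both strands for letters known from 6 kinds of site, and no match overlapped another. These were TATAAA for the core promoter box, TGANTCA for AP-1, TGTTTAC for forkhead factors, AGATAA for zinc-finger factors such as GATA3, AACCNGTT for grainyhead factors and AGGTCA for nuclear receptor half-sites. The Sprr1a window held AP-1 letters at 147 to 141 and at 117 to 111 bases before the start, and TATA letters at 46 to 41 bases. Among 33469 windows of the same length, 6.34% held the AP-1 letters and 12.9% the TATA letters. The Upk1b window held grainyhead letters at 227 to 220 bases before the start, which 1.76% of windows did. For Upk1b, 113 of the 250 bases are shown, because the other 137 lie inside the span of the RefSeq gene. Its positions count from the end of the full window, not from the end of the bases shown. The windows of Upk1a and Upk3a lie wholly inside their gene spans and are not shown. None of the letters searched occurred in the windows of Krt5, Upk3b, Upk1a and Upk3a. A match describes the letters only and shows no binding.

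In the deposited annotation (rn6) Upk1a lies on chromosome 1, bases 89060581 to 89068348, minus strand, and Upk2 on chromosome 8, bases 48772906 to 48774898, minus strand. Upk1b lies on chromosome 11, bases 64522130 to 64553228, plus strand, Upk3a on chromosome 7, bases 125920357 to 125925430, plus strand, and Upk3b on chromosome 12, bases 23676152 to 23682381, minus strand. Sprr1a lies on chromosome 2, bases 192669143 to 192671059, minus strand. None of these 6 overlaps another listed gene. Psca lies on chromosome 7, bases 116090189 to 116091955, plus strand, and overlaps LOC100910068 on the other strand; the strand setting of the counting is not given in the sources used here, so reads of the pair may not be separated. The listed span of Krt5, chromosome 7, bases 143316920 to 143453546, minus strand, covers 136627 bases and 8 other listed genes, 6 of them on the same strand, including Krt1, Krt2, Krt71, Krt72 and Krt73. The Krt5 values are uncertain for that reason.

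The first question was how these genes stood in cyclosporine A kidneys against saline kidneys. Upk1a, Upk1b and Sprr1a were higher in every cyclosporine A kidney than in any saline kidney on rescaled FPKM, Upk3a was higher in 3 of 4, and Psca was not higher. The mean was higher with cyclosporine A for 7 of 8 genes on both scales. The rule that chose the genes used this contrast, so that count supports nothing. Across all genes tested, 50% had a higher mean on rescaled FPKM and 2.47% on deposited FPKM.

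Among the uroplakins, Upk1a was at 2.02, 1.40, 0.817 and 0.964 rescaled FPKM in saline replicates 1 to 4. In cyclosporine A replicates 1 to 4 it was at 4.45, 6.01, 6.34 and 5.14 rescaled FPKM. The groups did not overlap, and the counts behind these levels were 47 to 166 fragments with saline and 83 to 195 with cyclosporine A. The means were 1.30 ± 0.540 with saline and 5.49 ± 0.854 rescaled FPKM with cyclosporine A (SD, n = 4 each). In log2(FPKM + 1) the difference was 1.51 with a standard error of 0.18. On deposited FPKM the difference was 0.57 and the groups overlapped, with 2 of 4 cyclosporine A kidneys above all saline kidneys.

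Upk2, whose protein partners UPK1A in the plaque, was scarce in this table. It was at 0.214, 0, 0.153 and 0.0941 rescaled FPKM in the saline kidneys, from 12, 0, 6 and 4 fragments. The cyclosporine A kidneys had 0.581, 1.31, 4.33 and 0 rescaled FPKM, from 9, 29, 83 and 0 fragments. Replicate 3 was thus the highest and replicate 4 had no fragment, where 3 fragments would have been 0.272 rescaled FPKM. The gene did not pass the filter on low values, and its mean difference was 0.92 in log2(FPKM + 1), or 0.47 without cyclosporine A replicate 3.

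Upk1b was at 0.309, 0.106, 0.463 and 0.428 rescaled FPKM with saline. With cyclosporine A it was at 1.29, 2.10, 1.27 and 0.604, above every saline kidney, with the lowest value resting on 15 fragments. The difference was 0.78 in log2(FPKM + 1) with a standard error of 0.19 (deposited FPKM 0.29). Upk3a, the other partner of that pair, was at 1.34, 1.22, 0.204 and 0.302 rescaled FPKM with saline and at 3.05, 4.05, 4.22 and 1.09 with cyclosporine A. Cyclosporine A replicate 4 fell among the saline kidneys, and the saline kidneys themselves split into higher (replicates 1 and 2) and lower (replicates 3 and 4) values. The difference was 1.20 with a standard error of 0.33 (deposited FPKM 0.51). Upk3b was counted at 4, 0, 0 and 0 fragments with saline and 0, 0, 3 and 6 with cyclosporine A, too few for a comparison.

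Sprr1a was at 1.46, 1.11, 1.00 and 0.858 rescaled FPKM with saline, the tightest of the 8 genes among the saline kidneys relative to its mean. It was at 6.60, 5.75, 5.34 and 3.22 with cyclosporine A, again with replicate 4 the lowest and every value above the saline kidneys. The means were 1.11 ± 0.257 and 5.23 ± 1.44 rescaled FPKM (SD, n = 4 each), which differ by 1.54 in log2(FPKM + 1) with a standard error of 0.19. On deposited FPKM the difference was 0.64 and 3 of 4 cyclosporine A kidneys lay above all saline kidneys.

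Psca was at 10.7, 0.908, 2.91 and 1.57 rescaled FPKM with saline and at 3.57, 1.12, 2.59 and 3.29 with cyclosporine A. Saline replicate 1, with 316 fragments against 16 to 60 in the other saline kidneys, set the saline mean. The difference was −0.15 with a standard error of 0.50 in log2(FPKM + 1), and it became 0.38 without that kidney (deposited FPKM −1.12 with it). Krt5 was at 0.312, 0.439, 0 and 0.528 rescaled FPKM with saline and at 2.23, 0.765, 1.66 and 0.447 with cyclosporine A. Its 3 highest cyclosporine A values lay above all saline kidneys and replicate 4 did not. Its difference was 0.73 with a standard error of 0.25 (deposited FPKM 0.27).

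Of the 8 genes, 6 passed the filter, and 3 (Upk1a, Upk1b and Sprr1a) had all cyclosporine A kidneys above all saline kidneys on rescaled FPKM, where 4.81% of all tested genes did. On deposited FPKM none of the 8 did, where 0.119% of all tested genes did. Both shares stand beside the counts as background, and nothing is read from them because the rule used this contrast.

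**Figure D1:**
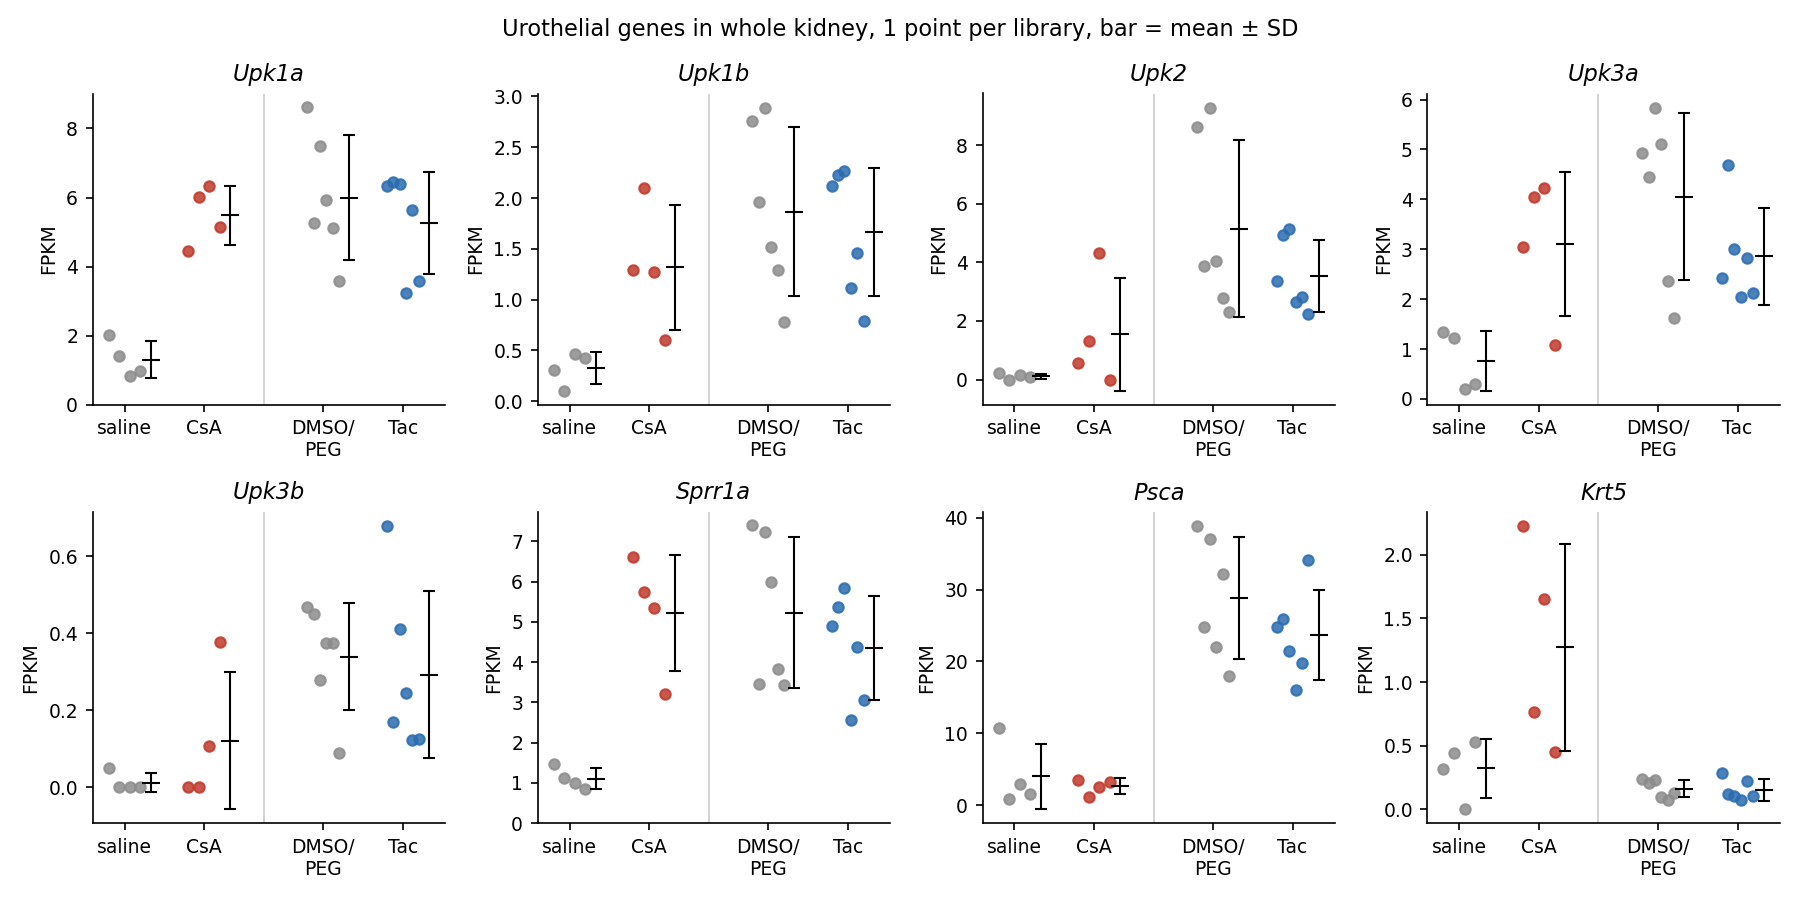
Level of each gene in every kidney (points, FPKM; rescaled FPKM left of the line, FPKM of the tacrolimus table right of it) with mean ± SD (bars) for saline and cyclosporine A (CsA, n = 4 each), DMSO/PEG and tacrolimus (Tac, n = 6 each). Upk1a, Upk1b and Sprr1a separate cyclosporine A from saline, while the tacrolimus and DMSO/PEG kidneys overlap for all 8 genes; levels left and right of the line were normalized separately.

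The second comparison asked whether the same genes differed between tacrolimus and its vehicle, which the choice of genes did not use. None of the 8 passed the test, against 0.303% of 15493 genes tested, and none reached an unadjusted p under 0.05, against 8.58%. All 8 had a lower mean with tacrolimus, where 49.8% of all tested genes had a higher one. The genes share the same 12 kidneys, and 5 of them moved together there, so the 8 directions are not 8 separate results. The drug and vehicle ranges overlapped for all 8; across all genes 0.303% had every tacrolimus kidney above every DMSO/PEG kidney and 0.671% below.

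Upk1a ranged from 3.58 to 8.62 FPKM with DMSO/PEG (median 5.59) and from 3.24 to 6.46 with tacrolimus (median 5.97). The means were 6.00 ± 1.80 and 5.27 ± 1.47 FPKM (SD, n = 6 each), a difference of −0.16 in log2(FPKM + 1) with a 95% interval of −0.59 to 0.28 (limma adjusted p = 0.902; exact permutation test, 2-sided, p = 0.476). Upk2 ranged from 2.31 to 9.28 FPKM with DMSO/PEG (median 3.96) and from 2.23 to 5.14 with tacrolimus (median 3.10). DMSO/PEG replicates 1 and 3, at 8.63 and 9.28 FPKM, stood above all other kidneys for this gene. The difference was −0.35 (interval −0.98 to 0.28; limma adjusted p = 0.817; exact permutation p = 0.307).

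Upk1b ranged from 0.781 to 2.89 FPKM with DMSO/PEG (median 1.74) and from 0.793 to 2.27 with tacrolimus (median 1.79), a difference of −0.09 (interval −0.55 to 0.37; limma adjusted p = 0.952). Upk3a ranged from 1.62 to 5.84 FPKM with DMSO/PEG (median 4.68) and from 2.05 to 4.69 with tacrolimus (median 2.63). This was the smallest p of the 8 genes, with a difference of −0.34 (interval −0.87 to 0.18; limma adjusted p = 0.761; exact permutation p = 0.212). Upk3b lay between 0.0901 and 0.678 FPKM in all 12 kidneys, from 4 to 32 fragments, with a difference of −0.06 (interval −0.29 to 0.17; limma adjusted p = 0.936).

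Sprr1a ranged from 3.43 to 7.40 FPKM with DMSO/PEG (median 4.91) and from 2.55 to 5.84 with tacrolimus (median 4.64), a difference of −0.20 (interval −0.67 to 0.27; limma adjusted p = 0.880). Psca was the most abundant of the 8 per length, at 28.8 ± 8.47 FPKM with DMSO/PEG (range 18.0 to 38.8) and 23.7 ± 6.20 with tacrolimus (range 16.1 to 34.1; SD, n = 6 each). Its difference was −0.26 (interval −0.71 to 0.19; limma adjusted p = 0.803). Krt5 was the least abundant, between 0.0671 and 0.287 FPKM from 8 to 36 fragments, with a difference of −0.01 (interval −0.14 to 0.11; limma adjusted p = 0.977). The intervals of Upk1a, Upk1b, Upk2, Upk3a, Sprr1a and Psca leave room for decreases of over 0.5 on this scale. The sign for Upk1b and Krt5 turned when 1 kidney was left out (to at most 0.018 and 0.0080).

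**Figure D2:**
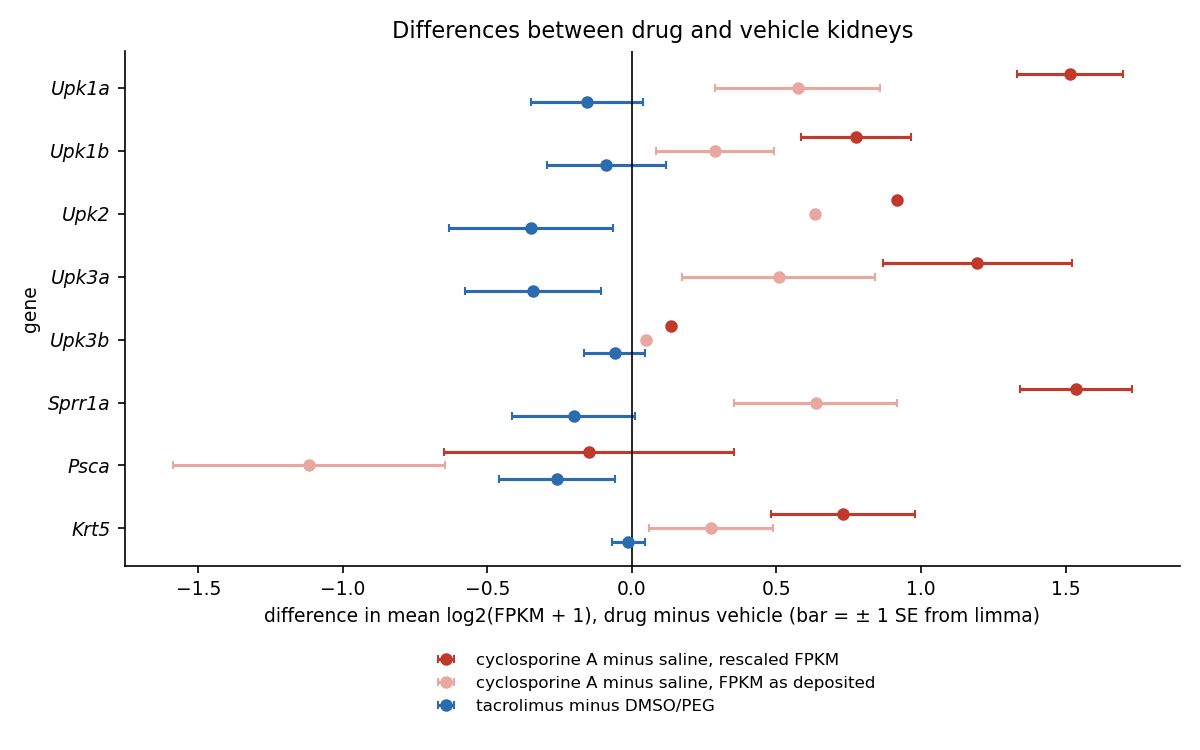
Difference between drug and vehicle in mean log2(FPKM + 1) for each gene, with ± 1 standard error from limma (no bar where the gene did not pass the filter on low values), for cyclosporine A on rescaled and on deposited FPKM and for tacrolimus. Cyclosporine A differences run from −0.15 for Psca to 1.54 for Sprr1a on rescaled FPKM, and tacrolimus differences from −0.35 for Upk2 to −0.01 for Krt5.

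In the order of levels per length among DMSO/PEG kidneys, Psca stood alone at the top. Upk1a (6.00 ± 1.80), Sprr1a (5.23 ± 1.88), Upk2 (5.15 ± 3.02) and Upk3a (4.05 ± 1.67 FPKM; SD, n = 6 each) followed with overlapping spreads. Upk1b (1.87 ± 0.835), Upk3b (0.339 ± 0.139) and Krt5 (0.161 ± 0.0700 FPKM; SD, n = 6 each) were lower. The saline kidneys had Psca at 4.03 ± 4.55, Upk1a at 1.30 ± 0.540, Sprr1a at 1.11 ± 0.257, Upk3a at 0.766 ± 0.596, Upk1b at 0.326 ± 0.161, Krt5 at 0.320 ± 0.231 and Upk2 at 0.115 ± 0.0910 rescaled FPKM (SD, n = 4 each). Neighbours in that order overlapped.

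Ratios between genes within a library do not depend on the scaling of the library. Sprr1a to Upk1a had a median ratio of levels per length of 0.842 in saline, 0.900 in cyclosporine A, 0.908 in DMSO/PEG and 0.809 in tacrolimus kidneys, and single kidneys ran from 0.625 to 1.48, both in the cyclosporine A group. The median of Upk2 to Upk1a was 0.102 in saline and 0.174 in cyclosporine A kidneys against 0.710 in DMSO/PEG and 0.692 in tacrolimus kidneys. Saline kidneys (0 to 0.187) lay below the tacrolimus table, whereas cyclosporine A kidneys (0 to 0.683) overlapped DMSO/PEG (0.542 to 1.24) and tacrolimus kidneys (0.501 to 0.817), on 0 to 83 Upk2 fragments. The median of Krt5 to Upk1a was 0.234 in saline (0 to 0.548) and 0.194 in cyclosporine A kidneys (0.0869 to 0.50), against 0.0288 in DMSO/PEG (0.0146 to 0.0389) and 0.0249 in tacrolimus kidneys (0.0166 to 0.0453). The median of Psca to Upk1a was 2.60 in saline (0.648 to 5.32) and 0.524 in cyclosporine A kidneys (0.186 to 0.802, on 13 to 29 Psca fragments), and these 2 groups overlapped. It was 4.83 in DMSO/PEG (3.72 to 6.30) and 3.96 in tacrolimus kidneys (3.365 to 9.51). These are descriptions of the libraries, and the gene length that the cyclosporine A counts imply for Krt5 (3004 bases) is shorter than the listed one (3167).

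Co-variation across kidneys was measured as Pearson's r of log2(FPKM + 1) after each group's mean was removed, with p-values from permutations of the kidneys within their group (2-sided, Benjamini-Hochberg adjusted over all pairs of a table). Across the 12 kidneys of the tacrolimus comparison, 5 genes rose and fell together: Upk1a, Upk1b, Upk2, Upk3a and Sprr1a. All 10 pairs among these 5 passed, by Pearson's r and by Spearman's rho, and none of the other 18 of 28 pairs did. The group of 5 was not set in advance, and the share of pairs of other genes that pass this test was not measured. The 10 values of r ran from 0.74 (Upk3a with Sprr1a) to 0.93 (Upk1a with Sprr1a), with a median of 0.84. When the 2 kidneys farthest from the median of the first gene were left out they ran from 0.61 to 0.92.

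Sprr1a with Upk1a was the closest pair (r = 0.93, rho = 0.94, n = 12; permutation p = 3e-05, adjusted 0.00056; rho permutation p = 5e-05, adjusted 0.0007). Its r was 0.91 without the 2 outlying kidneys, 0.89 within DMSO/PEG and 0.98 within tacrolimus. Upk1a with its plaque partner Upk2 had r = 0.85 and rho = 0.94 (n = 12; permutation p = 0.00081, adjusted 0.0045; rho permutation p = 0.00014, adjusted 0.0013; 0.86 without the 2 outlying kidneys). Upk1b with its partner Upk3a had r = 0.80 and rho = 0.77 (n = 12; permutation p = 0.0035, adjusted 0.016; rho permutation p = 0.0093, adjusted 0.029; 0.68 without the 2 outlying kidneys). Across the partnerships r was 0.92 for Upk1a with Upk1b, 0.92 for Upk1b with Upk2, 0.81 for Upk2 with Upk3a and 0.77 for Upk1a with Upk3a (0.92, 0.91, 0.80 and 0.61 without the 2 outlying kidneys); differences between values of r were not tested.

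No pair with Psca, Krt5 or Upk3b passed, though the difference between values of r was not tested. Pairs with Psca had r of 0.20 to 0.50 (smallest adjusted permutation p = 0.223). Pairs with Krt5 had 0.30 to 0.59 and pairs with Upk3b 0.20 to 0.57 (smallest adjusted permutation p = 0.136 for both). Without the 2 outlying kidneys the pairs with Psca ran from −0.13 to 0.70, those with Krt5 from −0.0046 to 0.59 and those with Upk3b from −0.13 to 0.41. Krt5 and Upk3b rested on 4 to 36 fragments per kidney and Psca on 261 to 576, and the part of counting error in these values of r was not tested. Within DMSO/PEG Psca had r = 0.85 with Upk1a, and within tacrolimus 0.081; tacrolimus replicate 6 was its group's highest for Psca (34.1 FPKM) and among the lowest for Upk1a (3.59 FPKM).

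**Figure D3:**
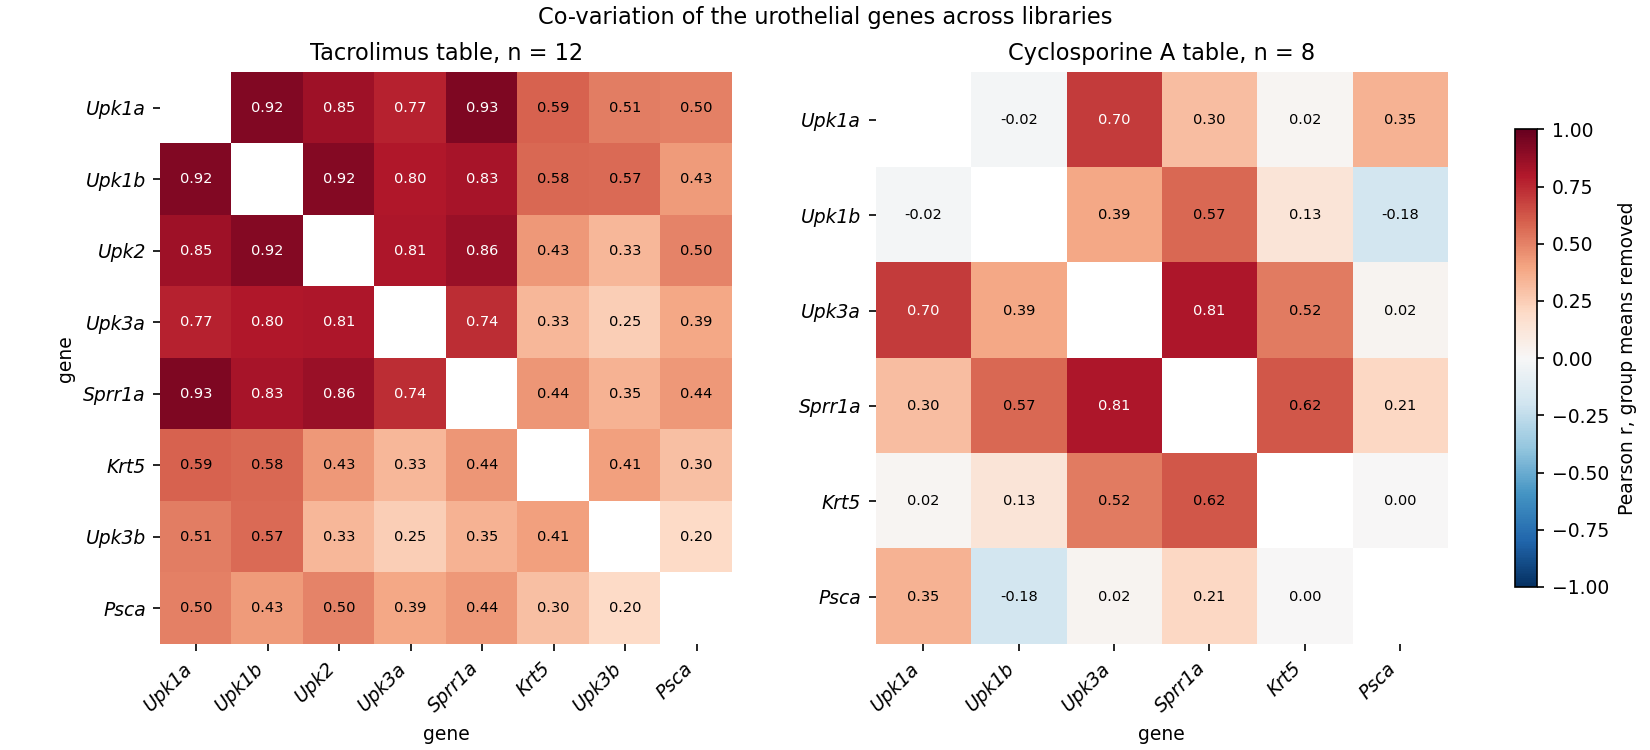
Pearson's r between genes across kidneys after removal of group means (colour and printed value) in the tacrolimus table (8 genes, n = 12) and the cyclosporine A table (6 genes that passed the filter, n = 8). The block of Upk1a, Upk1b, Upk2, Upk3a and Sprr1a lies between 0.74 and 0.93 on the left, while on the right pairs run from −0.18 to 0.81.

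The same kidneys stood out for most genes. In the tacrolimus table the summed level of these 5 genes was 32.3 and 32.7 FPKM in DMSO/PEG replicates 1 and 3, and 11.7 in DMSO/PEG replicate 6. DMSO/PEG replicate 6 was the lowest of its group for 7 of the 8 genes. Tacrolimus replicates 2 and 3 were high, at 23.7 and 22.6 FPKM, and replicates 4 and 6 low, at 11.6 and 11.8. The lowest kidneys of both groups thus had close to equal levels, and DMSO/PEG replicates 1 and 3 exceeded every tacrolimus kidney.

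The mitochondrial share of the library moved against these 5 genes. It is a property of the whole library, and the share of all tested genes that move with or against it was not measured. In the tacrolimus table r with the mitochondrial percent was −0.86 for Upk1a, −0.88 for Upk1b, −0.74 for Upk2, −0.71 for Upk3a and −0.75 for Sprr1a (rho −0.92, −0.90, −0.85, −0.71 and −0.80; n = 12; permutation p adjusted over 8 genes 0.0028, 0.00016, 0.0028, 0.0059 and 0.0059). Without the 2 kidneys farthest from the median share the 5 values lay between −0.90 and −0.73. Psca (−0.07), Upk3b (−0.50) and Krt5 (−0.46) did not pass (adjusted permutation p = 0.190 or above), and without those 2 kidneys they were at −0.52, −0.07 and −0.52. DMSO/PEG replicate 6 (13.7%) and tacrolimus replicate 6 (15.9%) had the highest mitochondrial share of their groups. With the mitochondrial percent regressed out, the 10 pairs had r of 0.44 to 0.85 with a median of 0.62. This adjustment was chosen after the data had been seen.

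**Figure D4:**
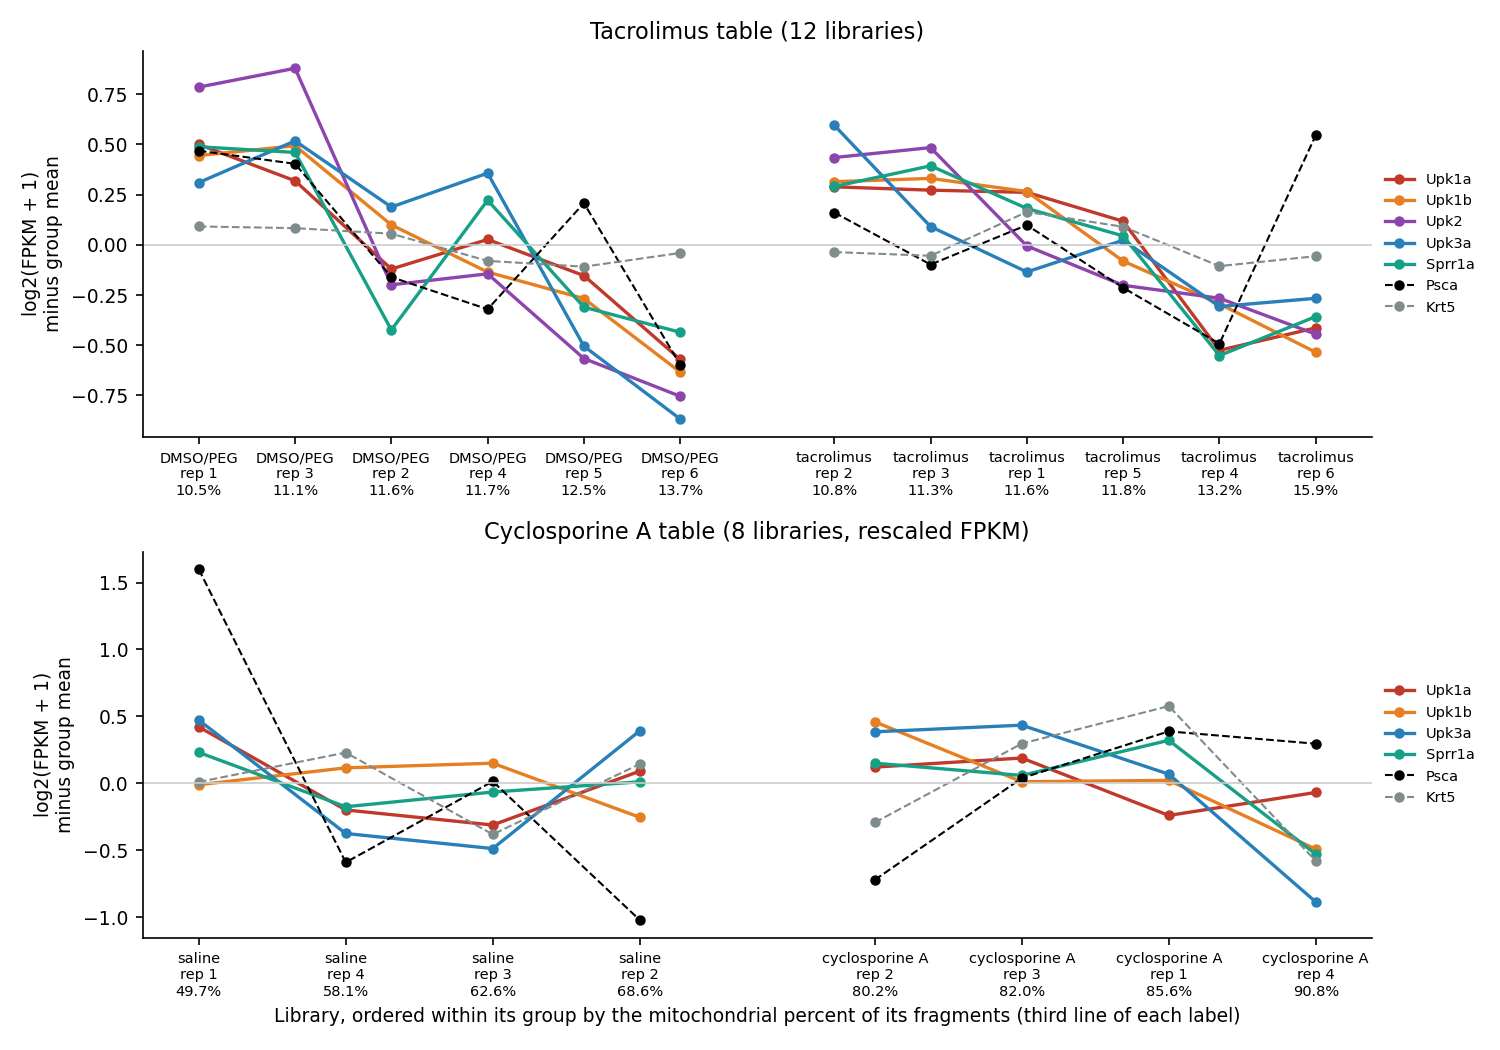
Log2(FPKM + 1) minus the group mean for each gene (lines) in each kidney, ordered within its group by the mitochondrial percent of its fragments (printed under each kidney); Upk3b is left out for low counts, and Upk2 also in the lower panel. In the upper panel Upk1a, Upk1b, Upk2, Upk3a and Sprr1a fall together from the kidneys at 10.5% and 10.8% to those at 13.7% and 15.9%, and Psca (dashed black) departs from them in tacrolimus replicate 6.

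In the cyclosporine A table, with 8 kidneys and lower counts, no pair of the 6 genes that passed the filter met the adjusted threshold. Upk3a with Sprr1a had the highest r at 0.81 (rho = 0.67, exact permutation p = 0.0503, adjusted 0.625; 0.51 without the 2 outlying kidneys). Upk1a with Upk3a had r = 0.70 (rho = 0.81, exact permutation p = 0.0833, adjusted 0.625; 0.60 without the 2 outlying kidneys). Upk1a with Upk1b had −0.02, against 0.92 in the tacrolimus table; the difference between the tables was not tested. Over the 15 pairs r ran from −0.18 to 0.81 with a median of 0.30. That median was 0.081 without the 2 outlying kidneys, 0.035 with the mitochondrial percent regressed out and 0.50 on deposited FPKM. Saline replicate 1, the saline kidney with the smallest mitochondrial share (49.7%), was the highest of its group for 6 of 8 genes. Cyclosporine A replicate 4, with the largest (90.8%), was the lowest of its group for 5 of 8. None of the 6 genes met the threshold against the mitochondrial percent within this table (adjusted exact permutation p = 0.377 to 0.646).

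All other genes were ranked by r with the mean standardized profile of the 6 genes that passed in both tables (Upk1a, Upk1b, Upk3a, Sprr1a, Psca and Krt5, without Upk2), over 20 kidneys with group means removed. The 6 genes themselves, which are part of that profile, had r of 0.91 (Sprr1a), 0.85 (Upk1a), 0.84 (Upk3a), 0.78 (Upk1b), 0.51 (Krt5) and 0.45 (Psca). Of the 13400 genes passing both filters, 26 outside the 8 had r above 0.7 (0.194%). The 10 closest were Sptssb (0.83), Acad10 (0.82), Fetub (0.81), Sel1l3 (0.80), Zswim3 (0.80), Golt1a (0.78), Uchl1 (0.77), Sult4a1 (0.77), Cyb5r3 (0.76) and Btbd19 (0.76). Sptssb codes for a small subunit of serine palmitoyltransferase, which starts sphingolipid synthesis, and Uchl1 for a ubiquitin hydrolase. Uchl1 rose with cyclosporine A by 1.59 in log2(FPKM + 1) on rescaled FPKM (limma adjusted p = 0.0227; 0.68 on deposited FPKM, limma adjusted p = 0.0287). That call was lost with no filter on low values (0.0559) and without saline replicate 3 or 4 or cyclosporine A replicate 1 or 3 (limma adjusted p = 0.0522 to 0.0930). The other 9 did not pass (limma adjusted p = 0.0546 or above), and 6 of the 10 had a lower mean with cyclosporine A. The differences of those 9 ran from −0.91 for Sult4a1 (limma adjusted p = 0.0546) to 0.89 for Sptssb (limma adjusted p = 0.0768). None of the 10 passed with tacrolimus (limma adjusted p = 0.390 or above). The kidneys share their depth and scaling across all genes, so these values of r are descriptions.

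A wider set of urothelial genes was then followed, listed by their known roles with earlier results of these data known. It held 64 gene identifiers in 5 lists, of which 42 could be tested with cyclosporine A. On rescaled FPKM 1 of 42 passed, Krt15, beside 0.609% of all genes. At an unadjusted p under 0.05 there were 11 higher and 4 lower (35.7% of the 42, beside 16.2% of all genes). The mean was higher for 32 of 42 with a median difference of 0.19, beside 50% and −0.00023 over all genes, whereas on deposited FPKM it was higher for 7 of 42, with a median of −0.59 beside −0.89. On that scale 27 of the 42 passed, of which 2 were higher, and Elf3, Ehf, Krt8, Krt7, Jup and Itga6 were among the lower ones (−1.63 to −0.70, limma adjusted p = 0.0195 or below).

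Krt15, a keratin of basal and progenitor cells of stratified epithelia, ranged from 0.403 to 1.44 rescaled FPKM with saline and from 2.73 to 3.23 with cyclosporine A. It rose by 1.14 ± 0.17 in log2(FPKM + 1) (standard error; adjusted p from limma = 0.0299). The call was lost on deposited FPKM (0.33, limma adjusted p = 0.232), with no filter on low values (limma adjusted p = 0.0770) and when saline replicate 2, 3 or 4 or cyclosporine A replicate 1 or 3 was left out (limma adjusted p = 0.0571 to 0.0944). Its r with the profile of the 6 genes was 0.71, the highest of the 42, whose median was 0.27. With tacrolimus it differed by 0.13 (limma adjusted p = 0.902).

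Among plaque and umbrella cell genes, 8 of 13 were tested with cyclosporine A, none passed, and all 8 had a higher mean on rescaled FPKM (2 of 8 on deposited FPKM). The most abundant were Wfdc2, a secreted protease inhibitor-like protein, at 0.43 (limma adjusted p = 0.164), and Mal, an apical sorting protein that is also made by tubules, at 0.05 (limma adjusted p = 0.921). On deposited FPKM both passed as lower, as most tested genes did, at −0.89 and −1.24 (limma adjusted p = 0.0197 and 0.0020). Also in this list, and named after their values were seen, were the sorting nexin gene Snx31, at 0 to 0.186 with saline and 0.282 to 0.963 with cyclosporine A, and the protease gene Ctse, at 0.104 to 0.953 and 0.889 to 1.82 rescaled FPKM. Their differences were 0.56 and 0.69 (limma adjusted p = 0.0881 and 0.145). On deposited FPKM they were 0.27 and 0.17, and that of Snx31 passed (limma adjusted p = 0.045).

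Among transcription factors and the morphogen Shh, 10 of 14 were tested, none passed, and 9 had a higher mean on rescaled FPKM (1 of 10 on deposited FPKM). Elf3 and Ehf, epithelial Ets factors, differed by 0.30 and 0.41 (limma adjusted p = 0.567 and 0.538). Gata3, named after its values were seen, was at 2.05 to 3.17 with saline and 3.90 to 4.85 rescaled FPKM with cyclosporine A, a difference of 0.56 (limma adjusted p = 0.0882) that was −0.46 on deposited FPKM. Among keratins, 7 of 10 were tested, Krt15 alone passed, and 5 had a higher mean on rescaled FPKM (2 of 7 on deposited FPKM). The abundant Krt8 and Krt7, keratins that tubules and ducts also make, differed by −0.23 and 0.24 (limma adjusted p = 0.377 and 0.277). Krt14, the basal partner of Krt5, named after its values were seen, was at 0 to 0.0795 with saline and 0.279 to 1.18 rescaled FPKM with cyclosporine A, a difference of 0.68 (limma adjusted p = 0.0856; on deposited FPKM 0.42, limma adjusted p = 0.0029).

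Of the cornified envelope and surface genes, the group to which Sprr1a belongs, 6 of 14 were tested and none passed. On rescaled FPKM 5 of the 6 had a higher mean, with a list median of 0.33 (1 of 6 on deposited FPKM), and 2 were higher and 1 lower at an unadjusted p under 0.05. Its relatives Sprr1b, Sprr2d and Sprr3, named after their values were seen, were listed at 0 in all 20 kidneys. Perp, a desmosomal membrane protein, was the lower one, at −0.27 (limma adjusted p = 0.305). On deposited FPKM it passed as lower, as most tested genes did (−1.52, limma adjusted p = 0.000702). Of the basal cell adhesion genes 11 of 13 were tested, none passed, and 5 of 11 had a higher mean on rescaled FPKM (1 of 11 on deposited FPKM), with 0 higher and 3 lower at an unadjusted p under 0.05. Jup and Itga6, a junction protein and an integrin of the basement membrane, differed by −0.46 and −0.21 (limma adjusted p = 0.107 and 0.731). This was the only one of the 5 lists with a median below 0 on rescaled FPKM (−0.09).

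With tacrolimus 53 of the 64 were tested and none passed by limma; 5 were higher and 3 lower at an unadjusted p under 0.05 (15.1%, beside 8.58% of all genes). The median difference was 0.0072, beside −0.00033 over all genes, and 30 of 53 had a higher mean. Wfdc2 and Mal differed by −0.11 and −0.05, Elf3 and Ehf by 0.06 and −0.18, Krt8 and Krt7 by 0.27 and 0.13, Perp by 0.12, and Jup and Itga6 by 0.02 and 0.07. The smallest limma adjusted p of these 9 was 0.181, for Krt8.

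**Figure D5:**
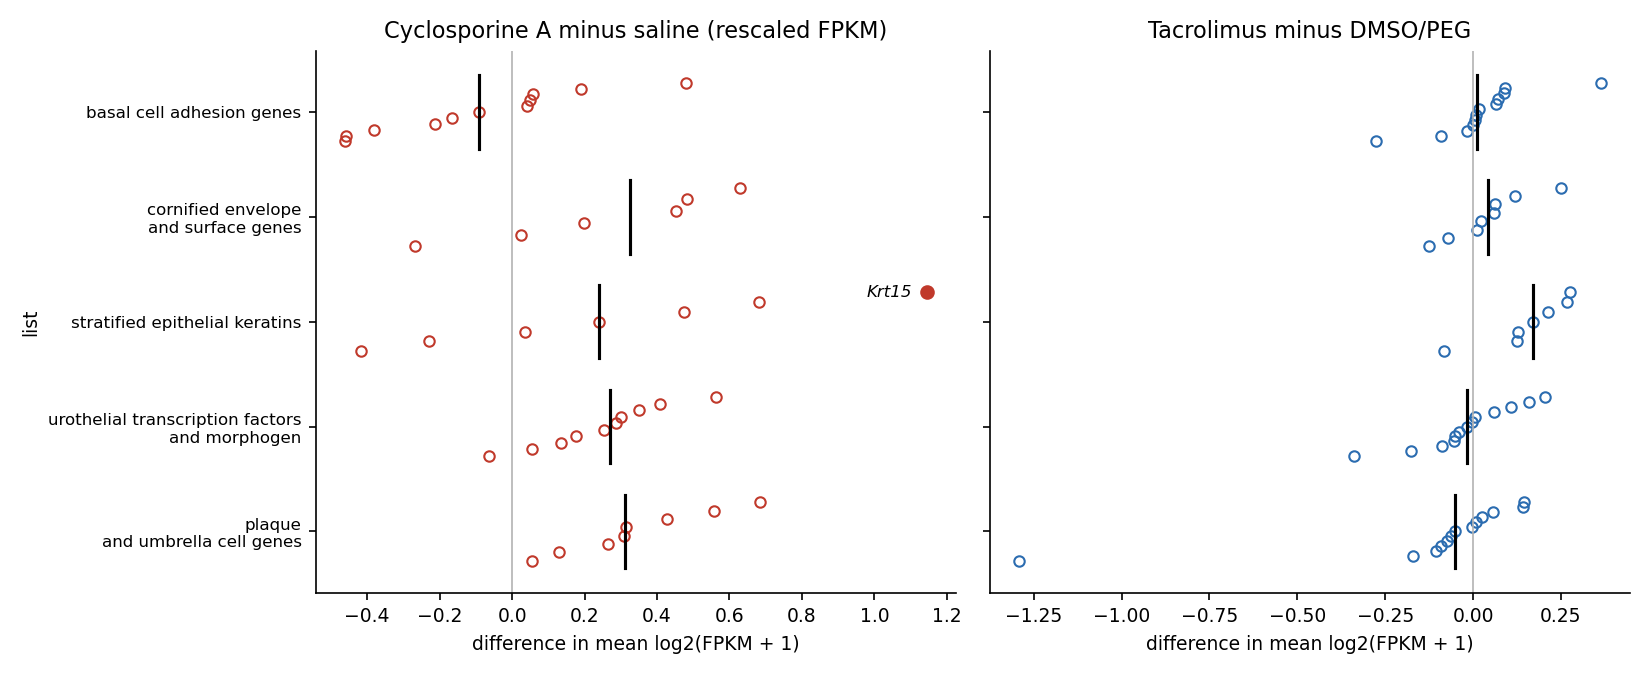
Difference between drug and vehicle in mean log2(FPKM + 1) for each tested gene (points) of 5 urothelial lists, with the list median (black line), for cyclosporine A on rescaled FPKM (left, 42 genes) and tacrolimus (right, 53 genes). Filled points passed at a limma adjusted p under 0.05, which Krt15 alone did; list medians on the left run from −0.09 to 0.33, and on the right they lie between −0.05 and 0.17.

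Markers of other cell types that a whole kidney or its pelvis can hold were summed in each library, leaving out the 8 genes. On rescaled FPKM, mesothelial markers (5 genes besides Upk3b) were the only list whose sums did not overlap between saline (0.202 to 0.473) and cyclosporine A (1.02 to 3.88). Sums were not made on deposited FPKM, so which lists overlap there is not given. Single markers are named here after their values were seen. Msln was at 0.146 to 0.310 and 0.764 to 2.46 rescaled FPKM (difference 0.90, limma adjusted p = 0.0687). Wt1, which podocytes also express, was at 0.0560 to 0.216 and 0.255 to 1.42 (difference 0.47, limma adjusted p = 0.249). In DMSO/PEG kidneys Wt1 made up most of the mesothelial sum, at 4.24 to 5.14 FPKM of 4.96 to 6.90. Calb2 was at 0 in all 8 kidneys, and Lrrn4 and Muc16 had at most 3 and 1 fragments in any of them. Sums of smooth muscle (9 genes, 18.1 to 24.5 and 19.0 to 39.7), papilla and inner medulla (8 genes, 94.5 to 152 and 98.5 to 226), collecting duct (7 genes, 169 to 248 and 175 to 318) and tubular injury markers (8 genes, 118 to 189 and 155 to 339) overlapped. So did those of proximal tubule (8 genes, 487 to 698 and 253 to 575), adipocyte (6 genes, 31.8 to 63.5 and 32.0 to 59.3) and keratinocyte markers (4 genes, 1.86 to 2.84 and 1.89 to 3.21 rescaled FPKM). In the tacrolimus table the sums overlapped between drug and vehicle for all 8 lists, and the adipocyte sums were 86.9 to 279 FPKM with DMSO/PEG and 49.7 to 154 with tacrolimus. Of the single markers, Slc5a2, a glucose transporter of the proximal tubule, rose with cyclosporine A on rescaled FPKM (0.94, limma adjusted p = 0.0385) on at most 91 fragments per kidney. It was at 0.11 to 0.50 with saline and 0.85 to 1.86 with cyclosporine A, against 130 to 163 FPKM in the tacrolimus table. Proximal tubule sums were also lower, at 253 to 698 rescaled FPKM against 3409 to 3915 FPKM. The tables were normalized separately, and the source of that gap was not tested. None of the other 7 proximal tubule markers passed (limma adjusted p = 0.0977 or above), and 5 of them had a lower mean, from −0.01 for Slc34a1 to −0.72 for Aqp1. Ucp1, the uncoupling protein of brown fat, fell with tacrolimus (−3.33, limma adjusted p = 0.00084). Within the tacrolimus table the mesothelial and adipocyte sums moved with the profile of the 6 genes (r = 0.76 and 0.75, n = 12, no test made), and the mitochondrial percent moved against it (r = −0.80). In the cyclosporine A table r with the mesothelial and adipocyte sums was −0.47 and −0.12 (n = 8, no test made). There it was 0.80 with the proximal tubule sum, 0.77 with the log2 number of fragments from nuclear genes and −0.70 with the mitochondrial percent. What part any of these has in the levels of the urothelial genes was not tested.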

How the data were processed

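Bulk RNA sequencing libraries of 20 kidneys were analysed from 2 tables. The authors deposited FPKM per gene and library; per the submitters' processing notes HISAT2 and the rat build rn6 were used, and the counting program, annotation release and strand setting are not given in the sources used here. Fragments were recovered from the FPKM steps (tolerance 1e-05 of a fragment): 100% of values above 0 were whole in the tacrolimus table and 74.1% in the cyclosporine A table, where 4445 genes needed a length shorter than listed. Cyclosporine A values, deposited relative to all assigned fragments, were rescaled by median-of-ratios size factors; the tacrolimus table already had equal factors. Tests used limma 3.58.1 (R 4.3.3; trend) on log2(FPKM + 1), which understates changes of low genes, with Benjamini-Hochberg adjustment over all genes and a threshold of 0.05. A gene was tested when it had 15 fragments in all and reached the equivalent of 10 in a number of libraries equal to the smaller group (13466 and 15493 genes). The methods were checked on simulated data, in which all genes had a common spread and the difference in mitochondrial share was not modelled.

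Exact permutation tests over 924 arrangements of 12 kidneys were added for single genes (Python 3.11.15), and permutation p-values of the co-variation (576 exact arrangements in the cyclosporine A table, 100000 draws in the tacrolimus table) were added to a plan that had none. The 8 genes and all lists were chosen with earlier results of these data known. Named genes were the 8, every other urothelial gene that passed, the 2 most abundant of each list (1 of which is not reported here) and the 10 most alike in pattern; all others, single markers and Sytl2 included, were named after their values were seen. The labels do not say whether each library is a separate animal, so p-values measure the spread between libraries. Libraries of a group differed beyond sampling noise (chi-square per degree of freedom 17.6 or above). Floors cover counting error only. Alternatives were deposited FPKM, other scalings, pseudocounts of 0.1 and 5, other filters, no trend, voom on recovered fragments, a replicate block and each library left out.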

Additional observations from a re-analysis of the deposited data

Results flagged for a closer look

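A library far from the others of its group was looked for in each of the 32 combinations of gene and group, and 2 were found, where chance alone gives about 1 in 20 groups. Upk3a in tacrolimus replicate 2 stood at 4.69 FPKM, against 2.05 to 3.01 in the other 5 tacrolimus kidneys, a gap of 0.635 of the group's range. Upk3b in saline replicate 1 stood at 0.0493 rescaled FPKM, against 0 in the other 3 saline kidneys, and rests on 4 fragments.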

How the results depend on the processing

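None of the 8 genes passed with tacrolimus under any alternative run, and their directions held except for Upk1b and Krt5, whose differences ran from −0.215 to 0.018 and from −0.046 to 0.0080 when 1 kidney was left out (without DMSO/PEG replicate 1, 0.00027 and 0.0050; without DMSO/PEG replicate 3, 0.010 and 0.0034; without tacrolimus replicate 6, 0.018 for Upk1b; without tacrolimus replicate 4, 0.0080 for Krt5). With cyclosporine A the mean was higher for 7 of 8 genes under every alternative run, and for 8 when saline replicate 1 or cyclosporine A replicate 2 was left out. The sizes depended on the pseudocount and the scale: Upk1a ran from 0.57 (deposited FPKM) to 2.06 (pseudocount 0.1), and Sprr1a from 0.64 to 2.12.

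Of the other urothelial genes, 1 passed with cyclosporine A; the number was 27 on deposited FPKM (2 of them higher), 2 with a pseudocount of 0.1, 0 with no filter, and 0 to 1 with 1 library left out. With tacrolimus it was 0, and 0 to 1 with 1 library left out: without DMSO/PEG replicate 5 one of the Sytl2 identifiers, named after its values were seen, passed as lower. Over all genes, 82 passed with cyclosporine A; the number was 10911 on deposited FPKM, 1 with no filter, 260 with voom and 1 to 140 with 1 library left out.

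The shared replicate numbers did not pair the samples: deviations of same-numbered libraries correlated at 0.047, 0.066, −0.15 and 0.21 in the cyclosporine A table and at 0.18, 0.16, 0.0055, 0.068, −0.15 and −0.14 in the tacrolimus table. With a replicate block 0 other urothelial genes and 6 of all genes passed with cyclosporine A (Krt15 adjusted p = 0.0654 and Uchl1 0.0635 by limma), and none of the 8 passed with tacrolimus. The median r over all pairs of the 8 genes was 0.51 in the tacrolimus table, 0.51 with a pseudocount of 0.1 and 0.45 with the mitochondrial percent removed. Over the 15 pairs of the 6 genes that passed the filter in the cyclosporine A table it was 0.30, and 0.035 to 0.50 under its alternatives. Low counts limit Upk2 (0 to 83 fragments) and Upk3b (0 to 6) in the cyclosporine A table and Upk3b (4 to 32) and Krt5 (8 to 36) in the tacrolimus table. The cause of each change was not tested.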
